A study of Mus musculus with 2 samples.

Results

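Btnl1 encodes a butyrophilin-like protein of the gut epithelium. It was the host gene with the most circular RNA (circRNA) junction reads in the library labelled non-ISC. All entries whose host gene name begins with Btnl were taken from the deposited lists. There were 9 of them among 18324 entries of the library labelled non-ISC and 0 among 18438 entries of the library labelled ISC. The 9 entries carry 4 host names, with 5 entries for Btnl1, 2 for Btnl5, and 1 each for Btnl2 and Btnl4. Btnl1 was chosen by its junction reads, which are many in one library and absent from the other list, so these values are a description, with no test.

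Both libraries came from intestine of Lgr5GFP-CreERT2 mice aged 2 months, a strain in which the Lgr5 gene drives a green fluorescent reporter. Cells were separated by flow sorting, and the labels give Lgr5+ ISC for one fraction (ISC, intestinal stem cell) and Lgr5- non-ISC for the other. Each fraction has 1 library, and the sources used here do not say how many animals it holds. RNA was freed of ribosomal RNA and digested with RNase R, an enzyme that removes most linear RNA, before sequencing. No difference below has a replicate check, no p-value is given, and every comparison is between these libraries and not between the cell types. In such bulk RNA, fewer cells of a type and less RNA per cell cannot be told apart.

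A circRNA forms when the splice donor at the end of an exon is joined to an acceptor further upstream, and reads across that back-splice junction count it. Butyrophilin-like proteins are relatives of the B7 co-stimulatory molecules, with immunoglobulin-like domains outside the cell. In the mouse gut Btnl1 acts together with Btnl6 on the surface of epithelial cells and is known for maintaining a subset of gamma-delta T cells that live within the epithelium. Skint1, a relative in skin, is known for selecting the gamma-delta T cells of the epidermis.

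Reads of crypt stem cell and T lineage genes went against the labels. Enterocyte genes with enough reads, given below, were lower in the library labelled ISC, the direction that the labels give. Junction reads totalled 156582 for the library labelled ISC, against 76331 for that labelled non-ISC. Lgr5, the sorted marker, had 0 junction reads in the former and 7 in the latter. Of 15 crypt stem cell genes, 6 had at least 10 reads over both libraries. Of these, 5 were lower in the library labelled ISC and 0 higher, where over all 2920 tested host genes 22.7% were lower and 26.7% higher. Of 20 genes of T lineage and thymocytes, 13 had enough reads and all 13 were higher there. That list held 4.67% of the junction reads there and 0.179% of those in the other library. A gene is called higher or lower here when it had 10 or more reads in all, its shares of junction reads differed by a ratio of at least 2, and the 95% exact conditional interval of that ratio excluded 1. With 10 or more reads in either library and 0 in the other, a gene is always called. This fixed the call of 7 of the 13 T lineage genes, at 0 in the library labelled non-ISC. It also fixed that of 3 of the 5 crypt stem cell genes, at 0 in the library labelled ISC.

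Btnl1 lies on the forward strand of chromosome 17 (chr17:34377132-34386028, GRCm38) and its protein-coding transcript has 10 exons. All 5 circles lie within exons 4 to 8, all of them coding, and none takes in the first 3 or the last 2 exons. The leading circle, chr17:34380961-34382488, runs from the annotated start of exon 4 to the end of exon 8. The 4 others start at position 34380994, which is 33 nt inside exon 4 and on no annotated exon start. They end at the annotated ends of exon 5 (34381550), exon 6 (34382126), exon 7 (34382267) and exon 8 (34382488). The 5 junctions are printed because they are what the reads counted, as the last 30 bases of the donor exon side in lower case followed by the first 30 bases of exon 4 used, in capitals.
Exons 4 to 8 from the annotated acceptor: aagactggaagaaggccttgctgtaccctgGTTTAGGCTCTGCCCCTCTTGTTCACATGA
Exons 4 to 5 from the inner acceptor: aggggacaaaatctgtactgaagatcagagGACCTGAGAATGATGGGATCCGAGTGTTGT
Exons 4 to 6 from the inner acceptor: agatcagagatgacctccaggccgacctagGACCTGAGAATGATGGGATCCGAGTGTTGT
Exons 4 to 7 from the inner acceptor: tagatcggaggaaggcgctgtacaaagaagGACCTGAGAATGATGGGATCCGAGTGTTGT
Exons 4 to 8 from the inner acceptor: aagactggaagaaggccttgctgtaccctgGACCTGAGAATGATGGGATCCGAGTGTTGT

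The inner start follows an AG, the last letters of the introns that the main splicing machinery removes. The stretch below (chr17:34380931-34381020, forward strand) holds the last 30 bases of intron 3 and the first 60 of exon 4, read from a GENCODE transcript that keeps this intron. Its capitals mark the AG before the annotated start and the AG before the inner start.
Acceptor region of exon 4: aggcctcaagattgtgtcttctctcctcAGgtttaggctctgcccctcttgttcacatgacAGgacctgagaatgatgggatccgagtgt
A match of these letters is a description and does not show which splice site was used. The bases ahead of each acceptor and the last bases of the donor exon were the same over 1 base for the donor of exon 8 and over 2 bases for the donors of exons 5, 6 and 7. Over so short a stretch a junction could be placed 1 or 2 bases upstream of where it is listed, which does not bridge the 33 nt between the acceptors. These values cover that direction only, and not a shift into the intron after the donor.

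**Figure D1:**
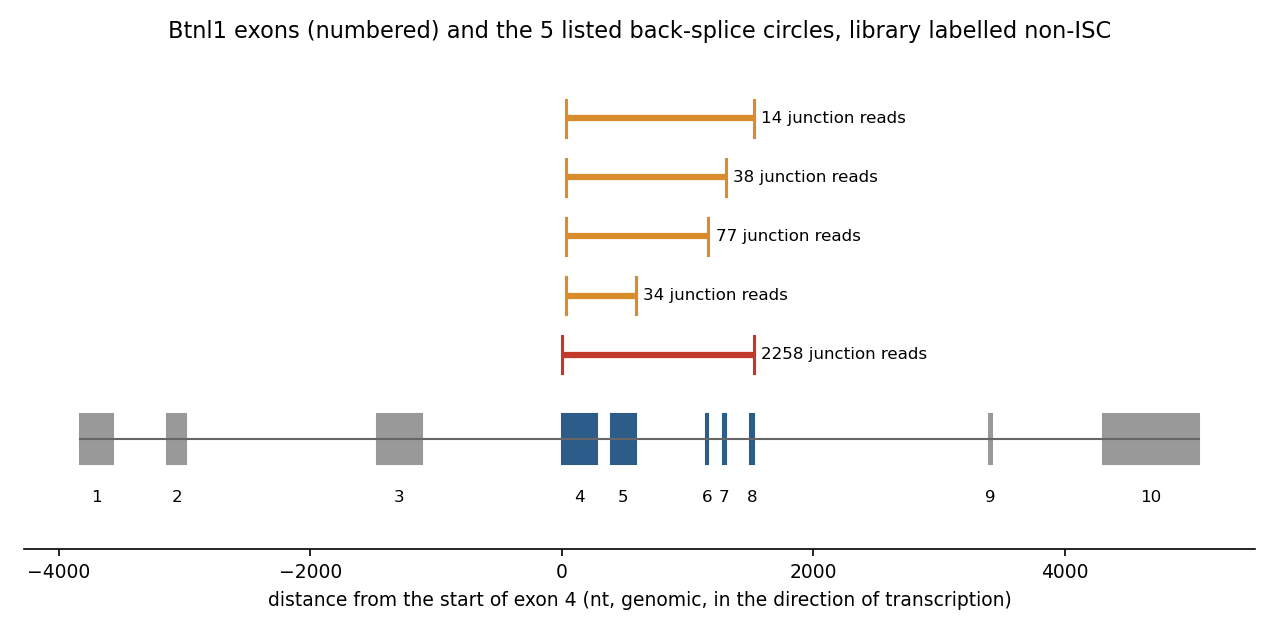
Exons 1 to 10 of Btnl1 (boxes, numbered) by genomic distance in nt from the start of exon 4, with the 5 circles listed in the library labelled non-ISC drawn as bars from acceptor to donor. The red circle of exons 4 to 8 has 2258 junction reads, and the 4 orange circles from the inner acceptor have 14 to 77.

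The circle of exons 4 to 8 from the annotated acceptor had 2258 junction reads in the library labelled non-ISC (95% exact Poisson interval 2166 to 2353). The circle of exons 4 to 6 from the inner acceptor had 77 reads (60.8 to 96.2). The one of exons 4 to 7 had 38 (26.9 to 52.2). These values put 1 circle far above the rest. The circle of exons 4 to 5 had 34 reads (23.5 to 47.5), and that of exons 4 to 8 from the inner acceptor had 14 (7.65 to 23.5). The circles of 38 and 34 reads had overlapping intervals and their order is not resolved by the counts. The circle of 77 reads lay above both of these, with an interval that overlapped neither. The intervals cover counting error only. Reads without molecular identifiers are not independent molecules, so the intervals may be too narrow.

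As shares of the 2421 junction reads of Btnl1, the leading circle held 93.3% (exact binomial interval 92.2 to 94.2). The circle of exons 4 to 6 held 3.18% (2.52 to 3.96), that of exons 4 to 7 held 1.57% (1.11 to 2.15) and that of exons 4 to 5 held 1.40% (0.974 to 1.96). The circle of exons 4 to 8 from the inner acceptor held 0.578% (0.316 to 0.968). The deposited lists also give a count, a whole number of reads per circRNA whose assignment the sources used here do not describe. For the leading circle the count was 3246, above its junction reads, and for the 4 others the count and the junction reads were equal. Equal values were common among circRNAs of that library with 10 or more reads. They made up 73.2% of the 1341 with both ends on exon ends and 61.3% of the 75 others. By the deposited count the leading circle held 95.2% of the reads of the gene.

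**Figure D2:**
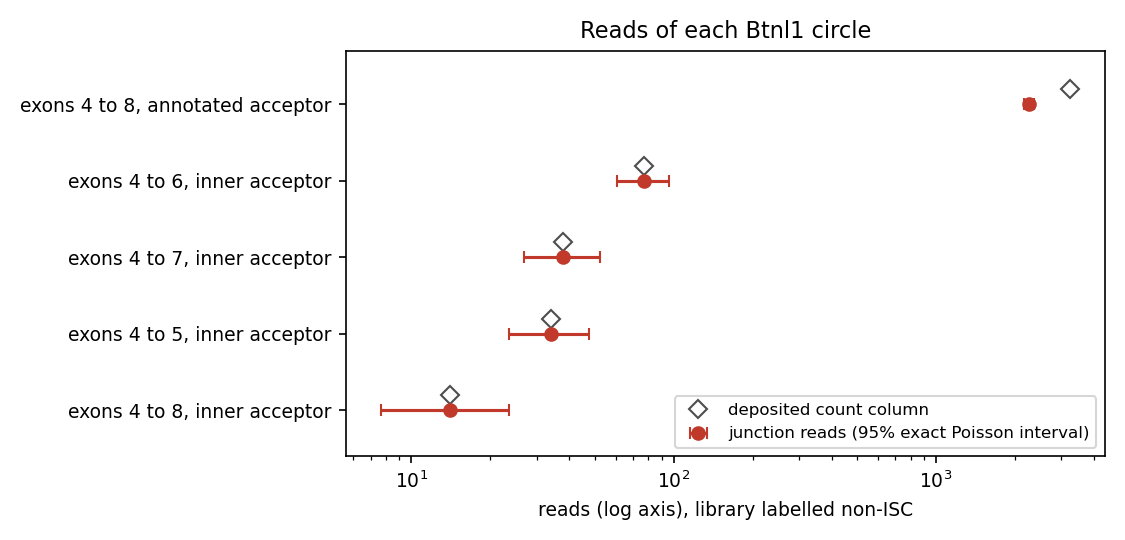
Junction reads of each Btnl1 circle in the library labelled non-ISC (filled points, log axis, bars for the 95% exact Poisson interval) with the deposited count (open diamonds). The leading circle stands at 2258 junction reads and a count of 3246, while the 4 others lie between 14 and 77 with both values equal.

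The choice of acceptor went with the choice of donor. Over all donors the annotated acceptor of exon 4 held 2258 of 2421 reads and the inner acceptor 163, or 6.73% (5.77 to 7.80). At the donor of exon 8, 14 of 2272 reads used the inner acceptor, or 0.616% (0.337 to 1.03). At the donors of exons 5, 6 and 7 together all 149 reads used it (exact interval 97.6% to 100%). For these donors the annotated acceptor has no entry. A missing entry need not stand for 0 reads in these lists.

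Other host genes of the library labelled non-ISC give a scale for this pattern. Of those with at least 100 junction reads and a GENCODE symbol, 91 had 5 or more circRNAs. In 19 of them (20.9%), Btnl1 included, the acceptor of the leading circRNA was joined to no other donor. Of all 124 such host genes, 18 (14.5%) had acceptors at most 50 nt apart joined to the same donor. In 12 of these the near acceptor was joined to the donor of the leading circRNA. It held 0.616% to 19.4% of the reads there, with a median of 4.62%. Btnl1 had the lowest share of the 12 and also the most junction reads. Where few reads lie at a donor, 1 read already makes a larger share, so depth limits this rank. Of these 12 distances, 7 were multiples of 3, that of Btnl1 included.

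Exon 4 is the exon that all 5 circles begin with and the one in which they differ. It is printed whole (chr17:34380961-34381242, forward strand), with the 33 nt that the inner acceptor leaves out in capitals.
Exon 4: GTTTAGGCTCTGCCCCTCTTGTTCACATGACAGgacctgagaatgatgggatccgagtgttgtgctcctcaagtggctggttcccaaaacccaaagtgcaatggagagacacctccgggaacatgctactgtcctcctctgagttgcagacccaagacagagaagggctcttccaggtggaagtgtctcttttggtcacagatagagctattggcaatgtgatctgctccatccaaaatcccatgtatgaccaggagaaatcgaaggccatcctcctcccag
Spliced together, exons 4 to 8 make a circle of 558 nt, and the 4 circles from the inner acceptor come to 450, 471, 498 and 525 nt in the order of their donors. These lengths come from the GENCODE transcript, since the reads cover the junction and do not show which exons lie inside. Exon 4 measures 282 nt and exons 6, 7 and 8 measure 21, 27 and 27 nt, and each of exons 4 to 8 is a multiple of 3. All 5 spliced circles are therefore multiples of 3 as well. Read in the frame of the linear message, 1 full turn of each circle holds 0 stop codons, the codon across the junction included. The leading circle holds 4 ATG codons in that frame and each of the others 3. This is a property of the sequence, and translation was not measured.

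For comparison, 1329 circRNAs of the library labelled non-ISC had 10 or more reads and both ends on exon ends of 1 transcript, and 36.3% of them had a spliced length that is a multiple of 3. Their median spliced length was 456 nt with a median of 3 exons, against 558 nt and 5 exons for the leading Btnl1 circle. Of these circRNAs 65.7% were no longer than the Btnl1 circle when spliced, and 23.8% had 5 or more exons. Its genomic span was 1528 nt. Of all circRNAs with 10 or more reads in that library, on exon ends or not, 16.2% spanned no more than that.

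The sequence of the Btnl1 circle was compared with its relatives in the same cluster, since reads from near-identical copies could be assigned to the wrong gene. The matching exons of Btnl4, Btnl6 and the pseudogene Btnl5-ps have nearly the same lengths, and aligned to the Btnl1 circle they were 57.9%, 58.1% and 57.8% identical. Among themselves these 3 were 84.8% to 89.1% identical. None of the 558 words of 25 nt around the leading circle occurred in a GENCODE transcript of another gene, on either strand. None of the 5 junctions, as the 24 bases centred on it, occurred in any GENCODE transcript.

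In the library labelled non-ISC, Btnl1 held 2421 of 76331 junction reads, or 3.17% (exact binomial interval 3.05 to 3.30), which is 1 read in 31.5. The leading circle alone held 2.96% (2.84 to 3.08) and ranked 1 among all circRNAs of that library. The circle of exons 4 to 6 ranked 110, that of exons 4 to 7 ranked 268, that of exons 4 to 5 ranked 305 and that of exons 4 to 8 from the inner acceptor ranked 861. All 5 thus lay within the first 861 of the 12202 circRNAs with a junction read. Per 1000000 reads of the library total implied by the deposited RPM values, Btnl1 had 33.5 junction reads.

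The library labelled ISC has no Btnl1 entry. A count of 0 among its 156582 junction reads allows a share of up to 0.00192%, taking 3 counts as the limit. Against that limit, the share of Btnl1 reads in the library labelled non-ISC was at least 1655-fold higher, if the missing entries stand for 0 reads. Over all host genes with at least 10 reads, 22.7% were called lower in the library labelled ISC (663 of 2920) and 26.7% higher (779). Btnl1 is among the 663, a call fixed in advance, since it was chosen as a gene with no entry in the library labelled ISC. Of the same 2920, 5.41% (158) had no reads there. With library totals in place of junction reads the split over host genes turned to 324 lower and 1717 higher, and Btnl1 was lower there too. The median log2 ratio over the tested host genes was 0.16. By circRNA, 23% of 3659 with 10 or more reads were lower in the library labelled ISC and 32.4% higher. All 5 Btnl1 circles are among the lower ones, which was fixed in the same way and is no result about them.

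**Figure D3:**
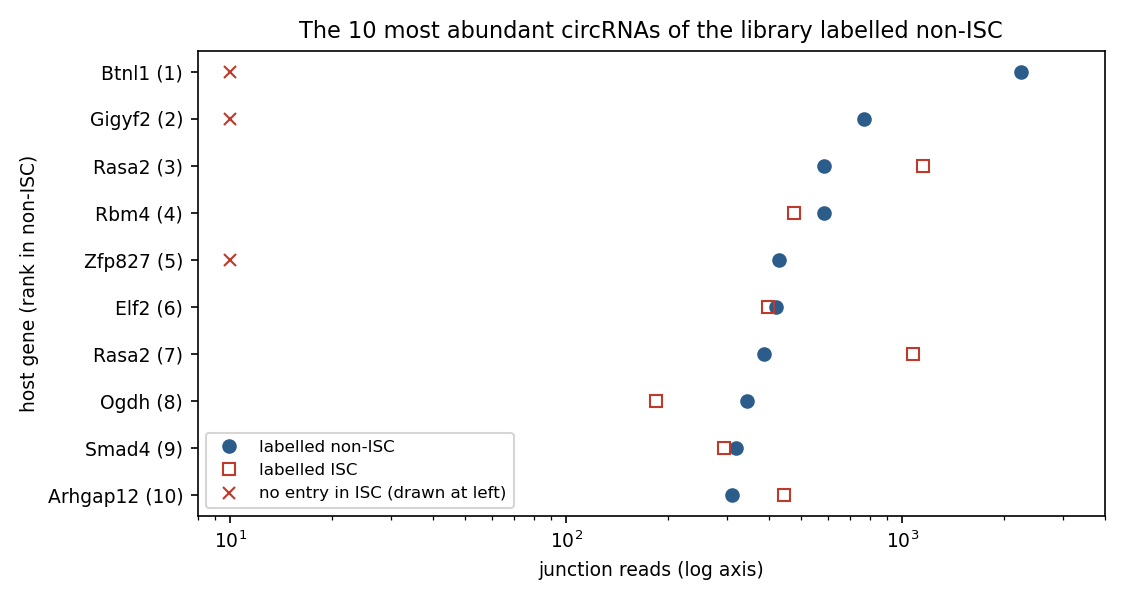
Junction reads (log axis) of the 10 circRNAs with the most reads in the library labelled non-ISC, in that library (filled points) and in the library labelled ISC (open squares), with crosses for those that have no entry there. Btnl1 leads with 2258 reads, and Gigyf2 follows with 770.

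The gap to the next circRNA was wide. The second in rank, from Gigyf2, a gene for a regulator of translation, had 770 reads, so that the Btnl1 circle had 2.93 times as many. The third, from Rasa2, which restrains Ras signalling, had 584 reads there and 1148 under the label ISC. One placed in Rbm4, an RNA-binding gene, had 583 and 477 in the same order. These are reads and not shares, since junction reads totalled 76331 for the library labelled non-ISC and 156582 for that labelled ISC. Places 5 to 10 went to Zfp827 (430 reads), Elf2 (420), a second Rasa2 circRNA (386), Ogdh (345), Smad4 (320) and Arhgap12 (311). Of these 10 circRNAs, those of Btnl1, Gigyf2 and Zfp827 have no entry in the library labelled ISC. Gigyf2 and Zfp827 had 28 and 66 reads there on other circRNAs, while Btnl1 had none. Of the 81 circRNAs reaching 100 reads in the library of the Btnl1 circles, 13 have no entry in the other, and for 5 of these the whole host gene had 0 reads.

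**Figure D4:**
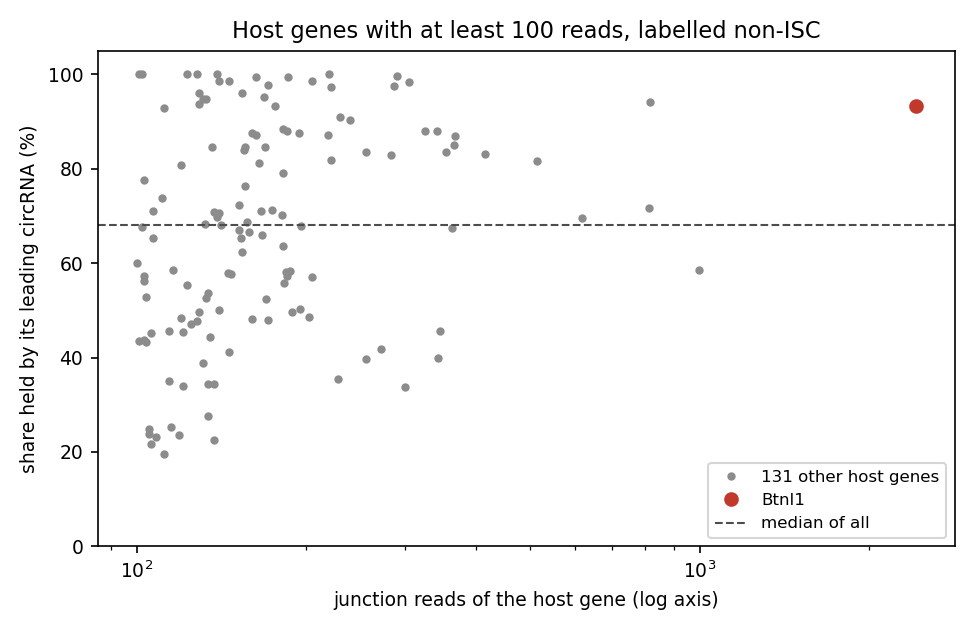
Share of each host gene's junction reads held by its leading circRNA (%) against the gene's junction reads (log axis) for the 132 host genes with at least 100 reads in the library labelled non-ISC, with the median of 68.1% as a dashed line. Btnl1 lies at 2421 reads and 93.3%.

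Btnl1 also had few circles for its reads. Over the 132 host genes with at least 100 reads the leading circRNA held a median of 68.1% (quartiles 48.5 and 87.5), and in 23 of them it held a larger share than the 93.3% in Btnl1. The median number of circRNAs with reads was 7, with a range of 1 to 25. Of these host genes 35 had fewer than 5 and 12 had 5, as Btnl1 did. The share of Btnl1 therefore lay above the upper quartile but was not the highest.

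The other Btnl names gave few junction reads, all in the library labelled non-ISC. Btnl2 encodes a butyrophilin-like inhibitor of T cell activation, and its circRNA is exon 3 alone (chr17:34357952-34358299), with 4 junction reads and a deposited count of 162. Btnl4 had 1 junction read with a count of 253. Its entry (chr17:34474004-34475948) starts on the end of exon 2 of the reverse-strand gene and ends 11 nt upstream of the annotated start of exon 1 of the transcript with that exon 2. With 4 reads or fewer these entries allow no ranking among themselves.

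Both entries named Btnl5, which GENCODE lists as the pseudogene Btnl5-ps, are of another kind. One (chr17:34492705-34496015) had 0 junction reads and a count of 231. It ends on an exon edge of that gene and starts 8 nt from another. The other (chr17:34476985-34517363) spans 40379 nt, with 2 junction reads and a count of 3930, the largest count of any Btnl entry. Neither end lies on Btnl5-ps. Its start is the end of an upstream exon of Btnl4, and its other end lies 11 nt upstream of the annotated start of Btnl6, the partner gene of Btnl1.

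The Btnl6 end of that entry and the matching end of the Btnl4 circRNA read alike. The 15 bases before and 15 bases from each listed end are given on the reverse strand, from the RefSeq promoter table on GRCm38, with the AG before the end in capitals.
Btnl4, chr17:34475934-34475963: tgtttttctcttcAGttctgctggacatgg
Btnl6, chr17:34517349-34517378: tgtttttctcttcAGttctgctggacatgg
The 30 bases ahead of both ends were identical at all 30 positions. From the ends inwards, both genes read the same for 31 nt, and over the exon with those 11 bases, 96 nt in all, they were 93.8% identical. A read that enters this exon by 31 nt or less thus cannot be told apart between Btnl4 and Btnl6. On the reverse strand the donor of the long entry (34476985) lies upstream of the Btnl4 end (34475948). A linear splice from that donor within Btnl4 would read the same over those 31 nt. The 2 reads of the long entry are therefore uncertain in their gene and in whether they cross a back-splice, which was not tested.

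Of the 10 butyrophilin genes looked up, 6 had no entry under their own name in either library: Btnl6, Btnl7-ps, Btnl9, Btnl10, Btn1a1 and Btn2a2. The long entry named Btnl5 has an end beside Btnl6, as given above. Btnl6 and the pseudogene Btnl7-ps lie in the same cluster as Btnl1, while Btnl9 and Btnl10 lie on chromosome 11 and Btn1a1 and Btn2a2 on chromosome 13. Only Btnl1 had enough reads in this list for a call. A missing entry is no measure of the linear messages, which were not counted in these files.

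Btnl1 lies in the mouse major histocompatibility complex, and 58 annotated protein-coding genes lie within 500 kb to either side. Apart from the Btnl names, 19 host names in this window had an entry. Together with entries of no host gene they held 22 junction reads in the library labelled non-ISC, with at most 4 on any name, and 16 in the library labelled ISC, with at most 3. The highest were the complement gene C2 and Tnxb, a tenascin gene, each with 4 reads against 0 in the library labelled ISC. H2-DMb1, which helps load class II molecules, and Tapbp, which helps load class I molecules, had 3 against 0. By reads, not shares of the library, Kifc1, a kinesin gene, had 3 under the label ISC and 2 in the other library, and Ppt2 had 3 and 0. The remaining 13 host names had 2 junction reads or fewer in each library. No neighbour came near the 2421 reads of Btnl1.

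**Figure D5:**
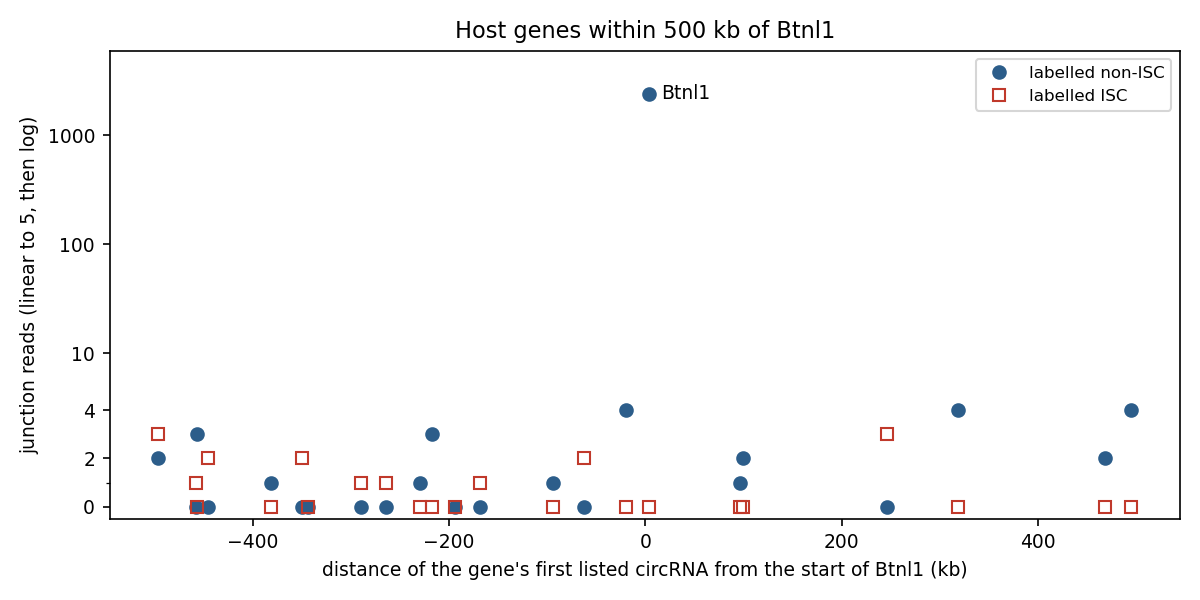
Junction reads of the host genes within 500 kb of Btnl1 (axis linear to 5 and logarithmic above) by the distance in kb of each gene's first listed circRNA from the start of Btnl1, with filled points for the library labelled non-ISC, open squares for the library labelled ISC, and a gene with no entry drawn at 0. Btnl1 stands at 2421 and every other name at 4 or below.

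Host genes with the pattern of Btnl1, at 0 in the library labelled ISC, were ranked by reads in the other library. Likeness here is only that all reads fell in 1 of 2 libraries. Atp9a, a gene of the lipid flippase family, followed with 196 reads on 11 circRNAs, so that Btnl1 had 12.4 times as many. Heph, which encodes hephaestin, a ferroxidase of iron export, had 185 reads, BC021891 had 169, and Cdhr2, a brush border protocadherin gene, had 160. B4galnt2, a glycosyltransferase gene, had 125, Dpyd, of pyrimidine breakdown, 123, and Car8, a carbonic anhydrase relative, 107. Myo7b, a brush border myosin gene, had 103, Igsf5, a junctional adhesion gene, 100, and Cobl, an actin nucleator gene, 96. Cdhr2 and Myo7b both encode parts of the microvilli of absorptive cells.

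Lists of cell type genes were set beside Btnl1 by the same call rule. All 10 enterocyte genes with enough reads, of 29 in the list, were lower in the library labelled ISC, where 22.7% of all tested host genes were, among them Slc5a1, the glucose transporter gene (0 reads against 56 in the library labelled non-ISC), and Mgam, a disaccharidase gene (0 against 48). That list held 0.00766% of junction reads under the label ISC and 0.848% in the other library. Its 28 genes with an entry together had 647 reads there, fewer than Btnl1 alone. Of these reads Heph held 185 and Cdhr2 160, and both genes are also among those ranked above. The 6 pan-epithelial genes with enough reads, of 14, were also lower, among them Myo5b (2 against 87), Pkp2 (0 against 73) and Epcam (0 against 59), and the list's shares were 0.00766% and 0.444%. Median log2 ratios with a pseudocount of 0.5 read were -6.70 for the enterocyte list and -5.92 for the pan-epithelial list, beside the 0.16 of all tested host genes. They rest partly on missing entries counted as 0, namely Apob, Sis, Mgam, Slc5a1, Cdhr2, Myo1a and Heph among the 10 and Epcam, Cdh1 and Pkp2 among the 6. With these at the limit of 3 counts the medians were -4.67 and -5.03. The lower calls of the genes at 0 were fixed by the call rule once they had enough reads. Only the other genes among the 10 and the 6 could have gone either way.

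Transcription factors of the gut epithelium had few circRNA reads. Of 20, 2 had enough reads and both were lower in the library labelled ISC, beside 22.7% of all tested host genes, namely Nr1h4, the bile acid receptor gene (2 against 48), and Gata6 (0 against 12). The call of Gata6, at 0 reads there, was likewise fixed by the rule. Hnf4g had 0 reads against 4, and Hnf4a and Cdx2, a pair known for driving intestinal genes, had 0 against 2 each. The crypt stem cell list held 42 reads against 194, with Prom1 at 0 against 50 and Smoc2 at 0 against 45, and Axin2, a Wnt target, at 10 against 29. Znrf3, an inhibitor of Wnt signalling, held 23 of those 42 reads against 12, a ratio of shares of 0.934 (0.446 to 2.06) that did not pass. Scaled to library totals, 4 crypt stem cell genes were lower in the library labelled ISC and 1 was higher. The library with the Btnl1 circles was thus the one that also held most reads of these epithelial lists, and their part in the Btnl1 difference was not tested.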

How the data were processed

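Each library has 1 deposited table of circRNA positions and host genes with 3 values, per the file headers: counts, RPM and junction counts. The deposited counts are whole reads, whose assignment the sources used here do not describe. The deposited RPM values are those counts per 1000000 reads. Dividing one by the other gives totals of 52636694 (labelled ISC) and 72271995 (labelled non-ISC) reads. Trimmomatic 0.36, FastQC and the mm9 build are named by the submitters' processing notes. No aligner or circRNA caller was stated (not given in the sources used here).

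Junction counts were the measure. Both ends lay on GENCODE M21 exon ends for 73.7% and 70.8% of entries, and for 0% after a shift of 1 nt, so coordinates are read as GRCm38, counted from 1. In the library labelled non-ISC 6122 entries have 0 junction reads, in the other 0. Missing entries count as 0. Intervals (95%) are exact Poisson, exact binomial (Clopper-Pearson) and exact conditional, in SciPy 1.17.1. The call rule was run on simulated Poisson counts. These hold no duplicate reads and no missing entries, so the run does not show how the rule behaves with them. Alignments used Biopython 1.88 (match 1, mismatch -1, gap opening -4, extension -1). Sequences came from GENCODE transcripts and the RefSeq promoter table. Of the 10 butyrophilin symbols, 4 matched a host name, Btnl5-ps by its older name.

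The members and lists were chosen with earlier results of these data known. Genes named are every Btnl entry, hosts within 500 kb of Btnl1, the 10 circRNAs leading the library labelled non-ISC, the 10 hosts besides Btnl1 with the most reads there and none in the other, and up to 4 genes of a list with the most reads; Hnf4a, Hnf4g, Cdx2 and Lgr5 were named for their role, with their values known.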

Additional observations from a re-analysis of the deposited data

How the results depend on the processing

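The leading Btnl1 circle had 2258 junction reads, 3246 by the deposited count and 1129 with junction counts halved, as if both mates of a pair had been counted. It held 93.3% of the gene's reads, 95.2% by the deposited count, and 100% where only circles with both ends on annotated exon ends are kept, since that leaves 1 circle. The gene's share of 3.17% became 5.05% over circRNAs with at least 10 reads and 0.00335% of the library total, and was the same for entries inside the annotated gene under any host name. By the deposited count Btnl1 did not lead the library labelled non-ISC, since the entries named Btnl5 had 4161 and those of Btnl1 3409. Btnl1 was lower in the library labelled ISC under each of the settings below that give it a value, which its choice had fixed. Restricted to circRNAs shared by both libraries it has none. Host genes called lower numbered 663, and 324 with library totals, 187 with a minimum of 50 reads, 1041 with none, 369 with counts halved, 3932 by the deposited count and 348 over shared circRNAs. Host genes called higher numbered 779, and 1717 with library totals, 300 with a minimum of 50 reads, 418 with counts halved, 1623 by the deposited count and 240 over shared circRNAs. With a minimum of 50 reads, 3 enterocyte genes, 1 gut epithelial transcription factor and 1 crypt stem cell gene were lower, and 8 T lineage, 0 intraepithelial T cell and 0 Skint and related genes were higher. With no minimum, 2 butyrophilin genes, 18 enterocyte genes, 5 gut transcription factors and 8 crypt stem cell genes were lower. With library totals, 1 crypt stem cell gene was higher. The cause of these shifts was not tested. No paired analysis was possible because each group has 1 library. Depth limits the lesser circles, at 14 to 77 reads, and the other Btnl names, at 4 or fewer.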

Other observations

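Relatives of Btnl1 outside the butyrophilin names had few reads. Of 21 Skint and B7-related gene names looked up, 3 had an entry, all in the library labelled ISC: Skint10 with 12 junction reads on 3 circRNAs, Skint4 with 2 and Pdcd1lg2 with 1, each against 0 in the library labelled non-ISC. Of these, Skint10 had enough reads for a call and was higher in the library labelled ISC, where 26.7% of all tested host genes were. Of 21 genes of intraepithelial and gamma-delta T cells, 3 had enough reads. Cd247 and Cd3g, chains of the T cell receptor complex, were higher in the library labelled ISC (14 and 11 reads against 0). The calls of Skint10, Cd247 and Cd3g were fixed by the call rule, since each had 0 reads in the other library. Itgae, an integrin gene of T cells within the epithelium, had 7 against 4, a ratio of 0.853 (0.217 to 3.97) that did not pass. Runx3, a transcription factor gene of such cells, had 5 against 4, too few for a call.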
